A study of Mus musculus with 3 samples.

Results

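The oligoadenylate synthetase genes of the mouse were followed in RAW 264.7 macrophages through 8 genes, namely Oas1a, Oas1b, Oas1c, Oas1g, Oas2, Oas3, Oasl1 and Oasl2. All gene probes of the microarray that carry 1 of these symbols were taken, which gave 13 probes for the 8 genes, out of 56605 gene probes and 26840 genes with a symbol. RAW 264.7 is a mouse macrophage line. The data held 3 arrays, and every culture received LPS, the Gram-negative cell wall component that activates TLR4, at 50 ng/mL. The LPS group received nothing else. The CRL1505 + LPS group was first cultured for 24 h with *Lacticaseibacillus rhamnosus* CRL1505, and the CRL1506 + LPS group with *Lactiplantibacillus plantarum* CRL1506, both at 50000000 cells/mL and washed away before LPS. The design text gives 12 h of LPS, whereas the sample descriptions give 3 h. Each group was measured on 1 array, so the differences have no replicate check, no test was made, and the number of arrays limits the precision of every value. Cells without LPS were not analysed here. The slide and scan run of the CRL1505 + LPS array held none of the others, which shared a slide and a run, so the effect of strain CRL1505 and that of its slide cannot be told apart.

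Oligoadenylate synthetases are cytosolic sensors that are activated by double-stranded RNA and join ATP into short 2-5A chains (oligoadenylates). These chains act as a second messenger of the antiviral response. The genes are known as classic targets of type I interferon, which macrophages release after TLR4 is engaged. Oas1a, Oas1g, Oas2 and Oas3 encode synthetases with 1 or more synthetase units in the chain. Oas1b and Oas1c are described as lacking the ability to make 2-5A. Oasl1 and Oasl2 are synthetase-like proteins that end in ubiquitin-like domains, and Oasl1 is known to hold back the translation of Irf7.

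Several Oas1 genes are close copies of each other, so the probes that carry the values are shown first. The files place the probes on mm9, and no gene annotation of that build was used. The family has 18 probes of 60 bases when the 4 other Oas1 genes of the array are included. Among the 146 pairs of probes of different genes, the longest shared run was 14 bases, between Oas1a and Oas1f, and the next was 10 bases. That run is printed in capitals in the first 30 bases of both probes, whose best alignment without gaps had 41 matches in 58 positions. The Oas1a probe lies at chr5:121346735-121346794 (minus strand) and the Oas1f probe at chr5:121307929-121307988 (plus strand).
Oas1a: TGTCCACCTGTTGGaaggttctgtctgaca
Oas1f: ccTGTCCACCTGTTGGgaggttctgtccaa

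The array's annotation lists RefSeq transcripts of both Oas1a and Oas1g for the Oas1a probe, so its value may hold both transcripts. The Oas1g probe lies elsewhere, at chr5:121332000-121332059 (minus strand), and shared no run longer than 10 bases with a probe of another gene. With the Oas1a probe it shared 6 bases, although the Oas1a probe lists transcripts of both genes. Runs shared between probes thus do not show whether a probe can bind the transcript of another gene, which was not tested. The Oas1g probe is shown whole because it is the single probe that carries that symbol.
Oas1g: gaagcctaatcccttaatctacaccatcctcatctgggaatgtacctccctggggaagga

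Oas1b had 3 probes on the plus strand, which are shown because their ratios differ below. The first, at chr5:121267702-121267761, is given whole, and the middle (chr5:121273890-121273949) and the last (chr5:121274109-121274168), which lie toward the end of the gene, with their first 30 bases.
Oas1b, first probe: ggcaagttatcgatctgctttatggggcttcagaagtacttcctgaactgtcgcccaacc
Oas1b, middle probe: cagaaggagaatattatggtttgtatatgg
Oas1b, last probe: gtgataatggactgaacttctgaacctgta

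Oas2 and Oas1c had 2 probes each on the minus strand. For Oas2 the inner probe at chr5:121184997-121185056 is shown whole, and the end probe at chr5:121180343-121180402 with its first 30 bases. The inner Oas1c probe is shown because its 60 bases span 2419 bases of the genome, from chr5:121255554 to chr5:121257972, as a probe across a splice junction does. The end probe of Oas1c lies at chr5:121250271-121250330.
Oas2, inner probe: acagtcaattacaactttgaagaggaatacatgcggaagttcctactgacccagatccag
Oas2, end probe: ctggggactctgcagttggctgttcattta
Oas1c, inner probe: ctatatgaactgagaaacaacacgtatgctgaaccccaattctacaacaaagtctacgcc

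Oas3 was read by 1 probe at chr5:121203598-121203657 (minus strand) and Oasl2 by 1 probe at chr5:115362168-115362227 (plus strand). Oasl1 had 2 probes on the plus strand, at chr5:115387556-115387615 and chr5:115387861-115387920. All members thus lie on chromosome 5, the Oas genes in 1 cluster and the Oasl genes in a separate place.

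The start regions of 6 members were found among RefSeq promoter windows of GRCm38.p6, each 250 bases before to 50 bases after a start site. Oas1b and Oas2 had no entry. The windows were searched on both strands for the core of the interferon-stimulated response element (GAAA, 2 bases of any kind, GAAA), to which interferon-activated factors such as Irf9 bind as a complex. It was found in 4 of 6 members and in 3.44% of all 32851 windows. In Oas1a and Oas1g, 2 matches overlap by 4 bases and form the same 16-base block, which ends 5 and 3 bases before the start. Oas1c holds the same block on the other strand and farther from the start, and Oas3 holds a single match. No match was found in the windows of Oasl1 and Oasl2. The matches are in capitals.
Oas1a, chr5:120907526-120907570, minus strand: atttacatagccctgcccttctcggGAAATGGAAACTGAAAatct
Oas1g, chr5:120887614-120887656, minus strand: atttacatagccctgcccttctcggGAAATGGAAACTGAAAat
Oas1c, chr5:120812588-120812653, minus strand: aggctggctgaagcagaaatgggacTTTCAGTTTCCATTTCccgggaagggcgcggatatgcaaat
Oas3, chr5:120777700-120777759, minus strand: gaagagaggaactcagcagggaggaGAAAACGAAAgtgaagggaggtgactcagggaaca

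The piece of Oas1g is contained whole in that of Oas1a, which is 45 bases long against 43. The second motif, TTCNNNGAA (the gamma-activated sequence), was found in 1 of 6 members, Oas1a, and in 8.30% of all windows. Among the 23 other interferon-stimulated genes that had a window, 11 held the core of the response element and 7 held TTCNNNGAA. A match describes the letters of the window and does not show that a factor binds there.

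Signals are given as scaled signals, that is the background-subtracted intensity of a probe divided by the 75th percentile of its array, and ratios are on the log2 scale, where 1 is a 2-fold difference. That 2-fold difference is the threshold of the study's methods. The percentile itself was an intensity of 743.1 (LPS), 517.0 (CRL1505 + LPS) and 697.9 (CRL1506 + LPS), and 54.5%, 48.5% and 55.3% of the gene spots, respectively, were well above background. All 13 member probes were well above background on every array, and 0 of them had an outlier, saturated or uneven spot. The error that the scanner software assigns to a signal gave an error of the log2 ratio of 0.20 to 0.33 for these probes. Probes of the same gene, over all genes, had an SD of 0.23 for CRL1505 + LPS against LPS, of 0.21 for CRL1506 + LPS against LPS and of 0.32 between the strains. Both describe the measurement of a single RNA sample and hold no spread between cultures. Scaled signals of different probes depend on the probe, so they are compared only across arrays. Less RNA per cell and fewer cells of a kind cannot be told apart in such samples.

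The label of the cells was set against macrophage markers. Of 10 such markers, the LPS array had 10 well above background and the other arrays 9 each, without Mrc1, and the summed scaled signal was 719 (LPS), 710 (CRL1505 + LPS) and 583 (CRL1506 + LPS). Of 13 markers of T cells, B cells, epithelium, fibroblasts and endothelium, 6, 7 and 9 were well above background on these arrays in the same order, with summed signals of 3.54, 3.39 and 3.42. Cd79a, Krt18, Cdh1 and Pdgfra stayed under that level in every group, whereas Cd3e, Cd3d, Cd4, Ms4a1 and Pecam1 were above it in every group. Such a sum adds signals of different probes, so the brightest markers weigh most in it and single markers can differ from it. The lower macrophage sum of CRL1506 + LPS stands beside all its values below, and its part in them was not tested.

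Among Oas1a, Oas1g, Oas2 and Oas3, Oas2 had the highest ratio with both strains. Its end probe, the brighter of its probes, had a scaled signal of 8.15 with LPS, 37.3 with CRL1505 + LPS and 23.2 with CRL1506 + LPS. Both strains were thus above LPS alone, by 2.20 on the log2 scale (4.58-fold) for CRL1505 and by 1.51 (2.85-fold) for CRL1506. The inner probe, with signals of 0.061, 0.158 and 0.174, gave 1.38 for CRL1505 and 1.52 for CRL1506. Both probes therefore placed Oas2 past 2-fold with both strains. Between the strains they differed, since CRL1505 over CRL1506 was 0.68 with the end probe and -0.14 with the inner one. The second value is under its own error of 0.25, so the inner probe gives no order of the strains.

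Oas1g, 1 of the active short synthetases, had a scaled signal of 2.38 with LPS, 8.60 with CRL1505 + LPS and 4.93 with CRL1506 + LPS. Its ratio was 1.85 (3.61-fold) for CRL1505 and 1.05 (2.07-fold) for CRL1506. The second value is close to the threshold and stayed past it in 8 of 12 other settings of the processing. Settings that changed only the filters on dim probes or on spots could not move a member, since every member probe passed them.

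Oas1a, the other active short form, had signals of 76.2, 168 and 139, in the same order of arrays. These gave 1.14 (2.21-fold) for CRL1505 and 0.87 (1.82-fold) for CRL1506. Both strain arrays were above LPS, but they were separated by 0.27, which is under the SD between probes for that comparison. Oas3, the longest synthetase, had signals of 1.36, 3.59 and 2.38, with ratios of 1.40 for CRL1505 and 0.81 for CRL1506.

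Of the genes described as inactive, Oas1c had a scaled signal of 0.885 with LPS, 1.77 with CRL1505 + LPS and 1.05 with CRL1506 + LPS at its end probe. The ratio for CRL1505 was 1.0, which lies on the threshold. The inner probe, with signals of 0.075, 0.150 and 0.095, also gave 1.0, with an error of 0.30. For CRL1506 the probes gave 0.25 and 0.33, with an error of 0.32 for the inner one. The 2 probes thus placed Oas1c about 2-fold above LPS for CRL1505 and little above it for CRL1506.

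Oas1b was the member whose probes differed most. Its last and brightest probe had scaled signals of 23.8, 29.7 and 27.5, with ratios of 0.32 for CRL1505 and 0.20 for CRL1506. The middle probe, with 1.08, 2.64 and 1.47, gave 1.29 and 0.45. The first probe, with 0.191, 0.311 and 0.377, gave 0.70 and 0.98. The ratios of all 3 probes were above 0 with both strains, but they spanned 0.98 for CRL1505 and 0.78 for CRL1506, more than the usual SD between probes. The low ratio of Oas1b therefore rests on 1 of its probes. The array's annotation lists 1 RefSeq transcript for that probe, which matched no gene of the RefSeq list used, whereas each other Oas1b probe had 1 that matched Oas1b. The values of Oas1b at its brightest probe below carry this limit. In the comparisons with LPS, Oas1b is also the only member whose direction depended on the scaling, since scaling to spike-in probes gave -0.19 for CRL1505.

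**Figure D1:**
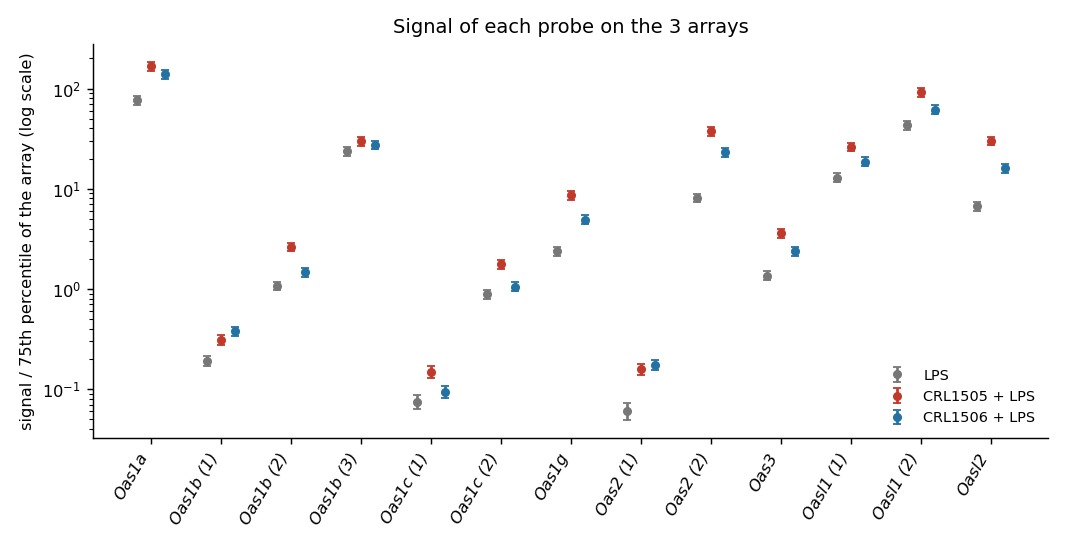
Scaled signal (intensity over the 75th percentile of the array, log axis) of the 13 member probes on the 3 arrays; numbers in brackets order the probes of a gene along its transcript, and bars show the error assigned by the scanner software. The LPS point is the lowest of the 3 for each probe.

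Of the synthetase-like genes, Oasl2 was close to Oas2 in its ratios. Its scaled signal was 6.72 with LPS, 30.2 with CRL1505 + LPS and 16.0 with CRL1506 + LPS, which gave 2.17 (4.5-fold) for CRL1505 and 1.25 (2.38-fold) for CRL1506. The strain arrays were farthest apart for this member, by 0.92.

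Oasl1 was measured by 2 probes that differed little in their ratios. The brighter had signals of 43.1, 91.9 and 61.9, with ratios of 1.09 for CRL1505 and 0.52 for CRL1506. The other had signals of 12.9, 26.3 and 18.7, with 1.02 and 0.53. Both probes thus stood about 2-fold above LPS for CRL1505 and under that threshold for CRL1506.

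**Figure D2:**
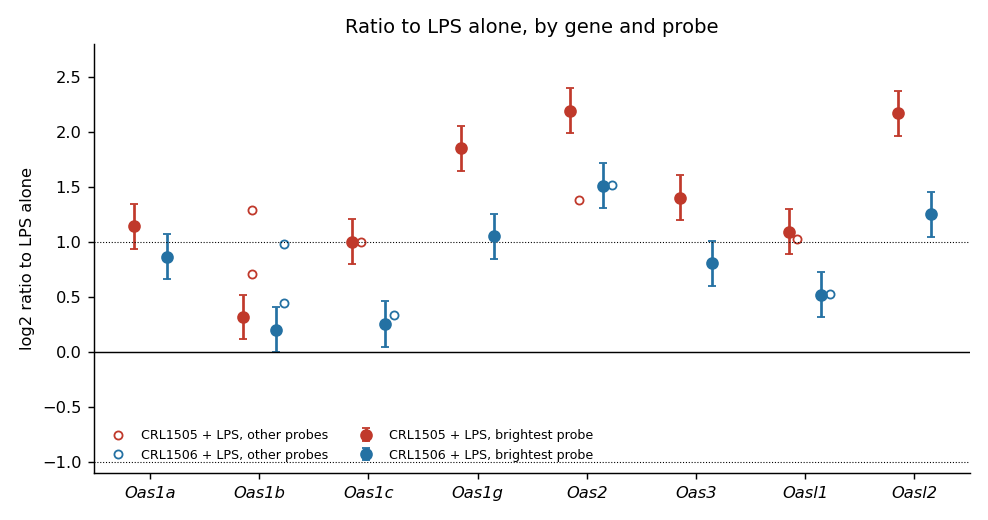
Log2 ratio to LPS alone for each member, with filled points for the brightest probe of a gene, open points for its other probes and bars for the error derived from the scanner software; dotted lines mark a 2-fold difference. Oas2, Oasl2 and Oas1g are past 2-fold with both strains, the probes of Oas1b are spread, and every value is above 0.

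Over the 8 members, with each gene read by its brightest probe, 7 were at least 2-fold higher with CRL1505 + LPS than with LPS and 0 were at least 2-fold lower, where 9.93% of all 15603 genes compared were higher and 8.41% lower. The exception was Oas1b. The median log2 ratio of the members was 1.27, with a range from 0.32 to 2.20, and that of all genes was 0.01. With CRL1506 + LPS, 3 of 8 members (Oas1g, Oas2 and Oasl2) were at least 2-fold higher than with LPS and 0 were lower, against 5.67% and 3.53% of 16279 genes. Here the median of the members was 0.84, with a range from 0.20 to 1.51, and that of all genes was -0.06. All 8 ratios were above 0 with both strains. All 8 also exceeded the between-probe SD for CRL1505, and 7 did so for CRL1506, the exception being Oas1b. The comparisons with LPS share the LPS array, so they are not independent of each other.

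The strains were also set against each other directly. All 8 members were higher with CRL1505 + LPS than with CRL1506 + LPS, by 0.11 for Oas1b to 0.92 for Oasl2, with a median of 0.64. The difference was under 2-fold for each, so 0 of 8 were past the threshold, where 9.02% of 15780 genes were at least 2-fold higher with CRL1505 + LPS and 7.47% lower. With a shift by the median, 6 of 8 were past it, with a member median of 1.14, and so were 23.6% of all genes. The difference of 6 members exceeded the between-probe SD of this comparison, and that of Oas1a and Oas1b was not. Oas1a and Oas1b kept this direction in 8 and 7 of the 12 other settings and reached -0.12 and -0.28 with scaling to spike-in probes, while the other 6 members kept it in all 12. These tallies include the filter settings, which could not move a member. Among the 13 probes, 11 were higher with CRL1505 + LPS, and the inner Oas2 probe and the first Oas1b probe, with -0.28, were lower. Both of these lower values were smaller in size than the between-probe SD of 0.32.

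Of the 13123 genes that every array measured well above background, 169 (1.29%) were at least 2-fold higher than LPS with both strains, and 3 members were among them. The members lay along a band in which the CRL1505 ratio exceeded the CRL1506 ratio. Oas2 exceeded 97.5% of the genes compared in its ratio for CRL1505 and 97.4% for CRL1506. Oasl2 exceeded 97.4% and 96.2%. Oas1b, at its brightest probe, exceeded 69.4% and 74.0%.

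**Figure D3:**
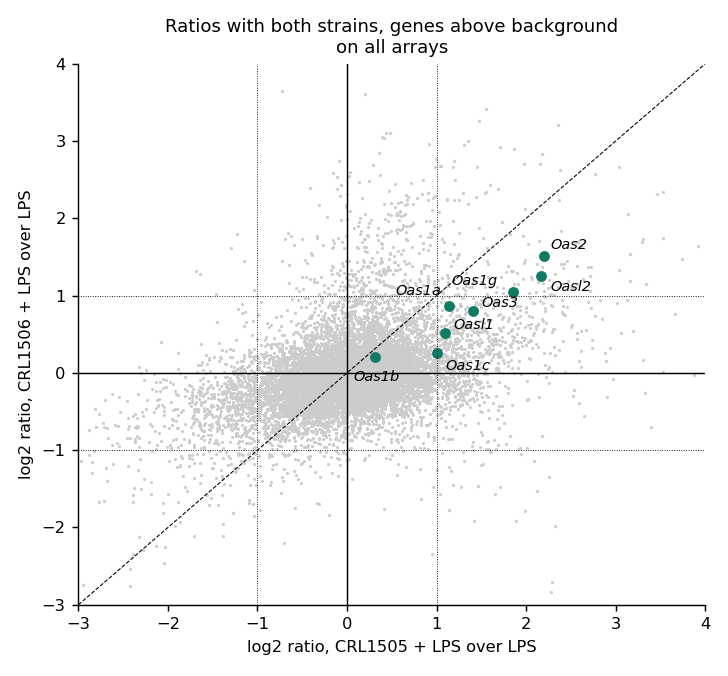
Log2 ratio to LPS with CRL1505 (x axis) and with CRL1506 (y axis) for genes that every array measured well above background (grey), with the members in green; the dashed line marks equal ratios, dotted lines mark 2-fold, and 27 genes outside -3 to 4 are not drawn. All 8 members lie below the dashed line and above 0 on both axes.

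Genes related to 2-5A were measured by probes that went different ways. Abce1, which encodes an ATP-binding protein known for splitting ribosomes after translation, had 0.14 for CRL1505 and -0.17 for CRL1506, but its other probe gave 0.05 and 0.81. Pde12, whose product degrades 2-5A, was 2.0-fold lower with CRL1505 (-1.0) and had 0.44 with CRL1506, but its other probe above background gave 0.35 and -0.43. Akap7, a relative of 2-5A-degrading phosphodiesterases, had 0.04 and 1.33, while its other probes gave 0.10 and 0.11 for CRL1505 and -0.19 and -0.37 for CRL1506. With the 3 genes of this 2-5A pathway list at their brightest probe, 0 were at least 2-fold higher and 1 (Pde12) was lower with CRL1505, with a median of 0.04, and 1 (Akap7) was higher and 0 were lower with CRL1506, with a median of 0.44. When the probes of each gene were averaged, 0 of the 3 were past 2-fold in either comparison.

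Of the 4 other Oas1 genes, Oas1h had 2 probes, neither of which was well above background in any group. Oas1f, whose probe shares the run of 14 bases with that of Oas1a, had scaled signals of 31.8, 80.5 and 57.2 and ratios of 1.34 for CRL1505 and 0.85 for CRL1506. Oas1d had signals of 0.365, 0.677 and 0.447, with ratios of 0.89 and 0.29, and Oas1e had 0.122, 0.195 and 0.126, with ratios of 0.67 and 0.04. The 3 measured genes were above LPS with both strains, and 1 of them, Oas1f, was past 2-fold, with CRL1505 only.

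The genes that lie before and beside the synthetases in the interferon pathway were counted next. Of all genes compared, 9.93% were at least 2-fold higher and 8.41% lower with CRL1505, with a median of 0.01. For CRL1506 these shares were 5.67% and 3.53%, with a median of -0.06. Of 14 genes of interferon signaling, 5 were at least 2-fold higher with CRL1505 and 2 with CRL1506, and 0 were lower, with medians of 0.48 and 0.0066. The highest for CRL1505 were Ifnb1 (3.46), the interferon itself, Usp18 (2.13), which restrains its receptor, and Irf7 (1.90), which drives interferon transcription. For CRL1506 they were Ifnb1 (2.31) and the receptor chain Ifnar1 (1.37). Ifnar1 had 4 probes and was not past 2-fold with CRL1506 when the probes of each gene were averaged. Of 29 other interferon-stimulated genes, 27 were at least 2-fold higher with CRL1505, with a median of 1.90, and 7 with CRL1506, with a median of 0.61. The highest were Ifit2 (2.82), Isg20 (2.77) and Ifit3 (2.71) for CRL1505, and Ifit3 (1.26), Tlr3 (1.17) and Trim30a (1.17) for CRL1506. Ifit proteins bind viral RNA and Isg20 is an exonuclease.

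In the direct comparison of the strains, 20 of those 29 genes were at least 2-fold higher with CRL1505 + LPS, with a median of 1.19, beside 0 of 8 members, with a median of 0.64. These counts became 25 of 29 and 6 of 8 with a shift by the median, and 9 of 29 and 0 of 8 with scaling to spike-in probes. The share of all genes at least 2-fold higher was 9.02% in the main processing, 23.6% with the median shift and 5.00% with spike-in scaling. The ranges overlapped, from 0.24 to 2.46 for the interferon-stimulated genes and from 0.11 to 0.92 for the members. Against LPS, the median of the members was below that of the other interferon-stimulated genes for CRL1505 and above it for CRL1506. The gap for CRL1506 narrowed when the probes of each gene were averaged. The other interferon-stimulated genes then had a median of 0.80, and the member median stood 0.85 above an all-gene median of -0.01. The difference between these lists was not tested.

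**Figure D4:**
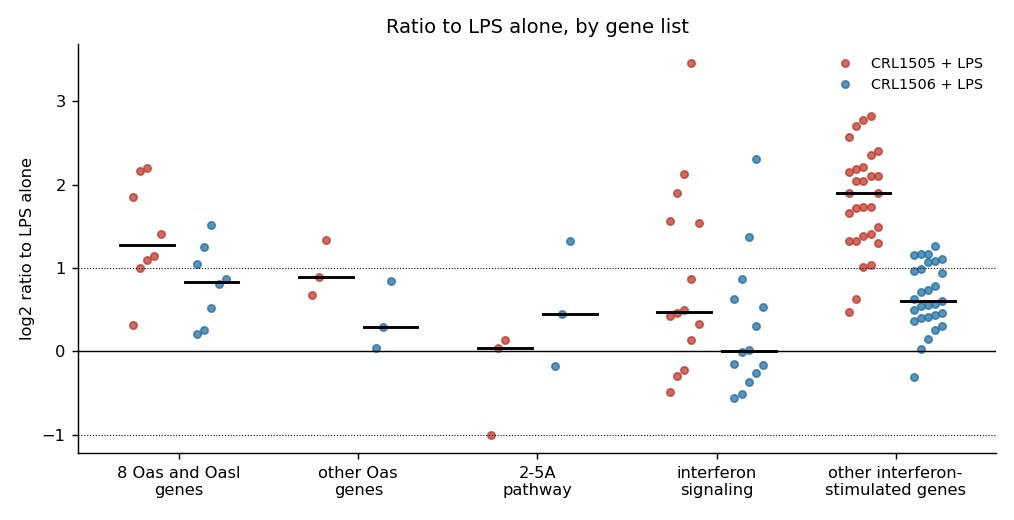
Log2 ratio to LPS alone of each measured gene of the members and of 4 related lists, for CRL1505 + LPS (red) and CRL1506 + LPS (blue), with black lines for medians and dotted lines for 2-fold. The members have medians of 1.27 and 0.84, the other interferon-stimulated genes 1.90 and 0.61, and the 2-5A pathway genes 0.04 and 0.44.

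The genes nearest to each member in the pair of ratios to LPS were found among the 13123 genes, by Euclidean distance over these 2 values. For Oas2 they were Chpf, Epsti1 and Ms4a7, at 0.13 to 0.21, and for Oasl2 they were Pla1a, Trim30a and Gcnt2, at 0.08 to 0.10. Oas1g was nearest to Ido2, Mx1 and Csprs, at 0.04 to 0.10, and Oas1a to Nkiras1, Rasa4 and Cd86, at 0.04 to 0.07. Oas3 had Tctn2, A630001G21Rik and Oas1f, at 0.03 to 0.08, and Oasl1 had Kcnip2, Lca5 and Srrm2, at 0.02 to 0.04. Oas1c was nearest to Mafk, Adar and Ddx17 and Oas1b to Oser1, Fth1 and Ly6e, at 0.0025 to 0.013 and at 0.0084 to 0.0098. Mx1, Adar, Trim30a and Oas1f among them belong to the lists above. The smallest error of a log2 ratio of the member probes was 0.20, so the measurement does not resolve which of many near genes is nearest. With 2 values per gene such a likeness describes the position of a gene in the plot of both ratios and no more.

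The scaling of the arrays moved the size of these values. For CRL1505, the members were lowest with scaling to spike-in probes and, apart from Oas1b, highest with a shift by the median. These settings moved all genes together, with a median of -0.48 over all genes for the former, where 4.97% were at least 2-fold higher and 19.7% lower, and of 0.33 for the latter, where 16.0% were higher and 5.03% lower. Oas1g, Oas2 and Oasl2 remained past 2-fold for CRL1505 in all 12 other settings, Oas3 in 11, Oas1a in 10, Oasl1 in 7 and Oas1c in 5. These tallies include the settings that changed only filters on dim probes or spots, which could not move a member. For Oas1c, the median shift was the only setting beyond those. For CRL1506, Oas2 and Oasl2 were past 2-fold in all 12, and the median shift gave an all-gene median of -0.26. Relative to the median of all genes in the same setting, the median of the members was 1.12 to 1.31 higher for CRL1505 and 0.75 to 1.0 higher for CRL1506.

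**Figure D5:**
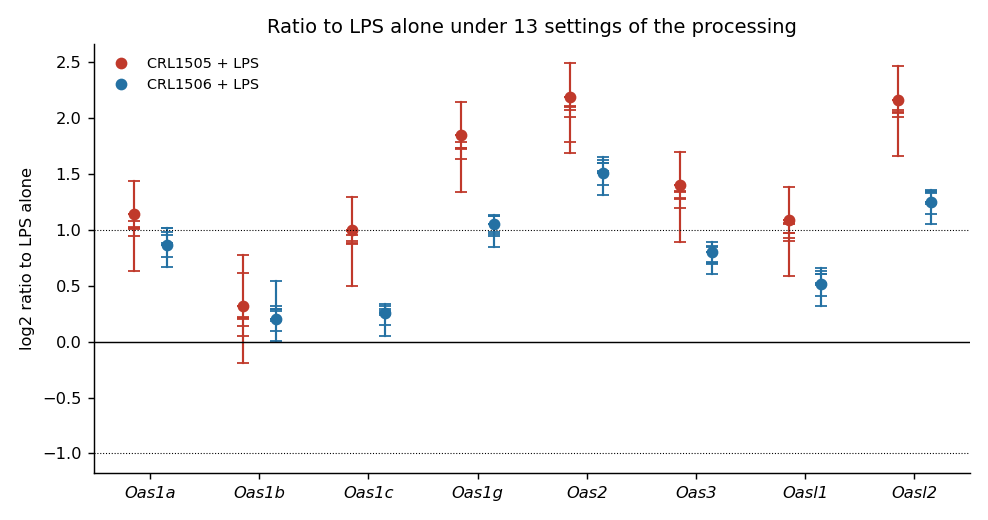
Log2 ratio to LPS alone of each member under the main processing (points) and under 12 other settings (ticks), with lines from the lowest to the highest value and dotted lines for 2-fold. Oas1g, Oas2 and Oasl2 with CRL1505 and Oas2 and Oasl2 with CRL1506 stay above 1 throughout, while Oas1b with CRL1505 crosses 0.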

How the data were processed

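RNA of 3 RAW 264.7 cultures was labelled with Cy3 and hybridised to SurePrint G3 Mouse GE 8x60K arrays in 1 colour. The authors deposited the processed signal of the scanner software (Feature Extraction, 12.0.3.1 per the file headers), an intensity with background subtracted and no normalization between arrays. A table of log2 values, normalized between arrays by the authors, was also deposited and was used as an alternative. The methods name GeneSpring and limma, and the submitters' processing notes name limma. The methods give another version of Feature Extraction than the file headers.

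Here log2 processed signals were reduced by their array's 75th percentile, spots marked as outliers were left out, and repeated spots were averaged. A gene was read by its brightest probe. Ratios were formed for probes well above background on at least 1 array compared, and as bounds if on 1 only. The threshold was 2-fold. The t-test of the methods needs replicates and was not run. The 12 other settings were a shift by the median, quantile, cyclic loess, the 75th percentile over probes above background on every array, spike-in scaling, normexp background correction (offset 50), the deposited log2 table, no filter on dim probes, only genes above background throughout, averaged probes, outlier spots kept and uneven spots left out. Uneven spots had a mean pixel signal above the median by more than 0.2 (log2), or at least 5 such spots among the 20 nearest.

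Members, lists and rules were chosen with earlier results of these data known, and 3 genes of the lists are not reported here. Named are all members with every probe, the genes of the 2-5A and other Oas lists, the 3 largest rises and falls past 2-fold in the other lists, and the 3 genes nearest to each member. Promoters are from RefSeq. Python 3.11.15, pandas 2.3.3, NumPy 2.4.6, matplotlib 3.10.9, R 4.3.3 and limma 3.58.1 were used, and the procedure was tested on simulated data.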

Additional observations from a re-analysis of the deposited data

How the results depend on the processing

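No paired analysis was possible because each group had 1 array, and no replicate could be left out. Of 288 ratios of the members recomputed under 12 alternatives, 250 moved by less than the SD between probes and 38 by more. The 250 include every ratio under the settings that changed only filters on dim probes or spots, which all member probes passed. Those ratios could not move, and averaging probes could not move the 4 members with 1 probe. The 250 are therefore no measure of stability. With a shift by the median, the member median was 1.57 for CRL1505 and 1.14 for CRL1505 over CRL1506, with 6 members at least 2-fold higher in the latter. The 2-5A pathway then had a median of 0.34 for CRL1505 with 0 genes lower, interferon signaling 0.77 and the other interferon-stimulated genes 2.19, and 1 of the latter was higher with CRL1506. With spike-in scaling, the member median was 0.77 for CRL1505, with 3 members higher, and 0.24 for CRL1505 over CRL1506. The 2-5A pathway had -0.46, interferon signaling -0.028 and the other interferon-stimulated genes 1.39 for CRL1505, with 4 of the latter higher with CRL1506. The deposited log2 table gave 4 members higher with CRL1505, where 6.22% of all genes were higher. It, quantile normalization and normexp background correction gave 0 genes of the 2-5A pathway lower. Averaging all probes of each gene gave the 2-5A pathway 0 genes lower with CRL1505 and 0 higher with CRL1506. It gave the other interferon-stimulated genes 1.64 for CRL1505 and 11 higher with CRL1506, and interferon signaling 1 higher with CRL1506. A threshold of 1.5-fold gave 5 members higher with CRL1506 and 5 for CRL1505 over CRL1506, and 4-fold gave 2 with CRL1505 and 0 with CRL1506. The shares of all genes past 1.5-fold and 4-fold were not computed, so these counts cannot be set against them. For CRL1505 over CRL1506, the other interferon-stimulated genes had a median of 1.69 with the median shift and of 0.79 with spike-in scaling. In this list, 9 genes were higher with spike-in scaling, 11 with quantile normalization and 12 in the deposited table, where 5.00%, 10.5% and 5.84% of all genes were higher. The cause of these shifts was not tested. Over all genes, the share of higher among genes past 2-fold with CRL1505 was 54.1%, against 76.1% with the median shift and 20.1% with spike-in scaling, and with CRL1506 it was 61.6%, against 43.4% with the median shift and 51.4% with quantile normalization. For CRL1505 over CRL1506 it was 54.7%, against 89.0% with the median shift, 66.0% with cyclic loess, 36.5% with the 75th percentile of probes above background on all arrays and 23.1% with spike-in scaling.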
